A study of Mus musculus with 2 samples.

Results

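The imprinted Dlk1-Dio3 domain of mouse chromosome 12 was described through 6 of its genes, Dlk1, Rtl1, Dio3, Meg3, Rian and Mirg, out of 32285 genes in the count matrix. The genes were chosen by name. The data came from SPARC-seq, an assay in which 1 set of barcodes tags both transcripts and accessible DNA. The tissue was labelled as brain, from a C57BL/6 mouse embryo at E18.5. It was also labelled as homozygous for the Ctcf mutation R567W, which had been introduced by CRISPR/Cas9. There was 1 RNA library and 1 chromatin accessibility library, no other genotype of this assay was analysed here, and every group below carries the mutation, so no effect of it could be measured. All 1993 barcodes of the matrix were also in the fragment file. Each barcode is read here as a spot that can hold several cells, because the barcodes form a grid of 2 segments with 50 sequences each.

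In this domain Dlk1, Rtl1 and Dio3 are known to be expressed from the paternal chromosome, and the noncoding RNAs Meg3, Rian and Mirg from the maternal one. A differentially methylated region between Dlk1 and Meg3 sets that choice. Dlk1 encodes a transmembrane protein related to the Notch ligands and is known from fetal muscle, adipose tissue and pituitary as well as from brain, while Meg3 is a long noncoding RNA abundant in neurons. Parent of origin was not measured here, since the embryo was inbred and the deposited counts carry no allele.

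UMIs (unique molecular identifiers) count captured transcripts. Of the 1993 spots 1992 were kept, those between 500 and 6000 genes whose mitochondrial share of UMIs did not pass 20%. Muscle-rich spots were the 10% with most Acta1 and Ttn, skeletal actin and titin. They numbered 200, with 874444 UMIs and 6747173 fragments. Neuronal spots had a list of 6 neuron genes (Stmn2, Tubb3, Map2, Snap25, Syt1 and Gap43) above its median and Acta1 plus Ttn at or below its median, and numbered 554, with 2441023 UMIs and 11946136 fragments. The limit for muscle-rich spots was 25.4 Acta1 and Ttn UMIs per 10000, and 96 spots lay within 10% of it.

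Neither group was pure. Genes that had not chosen the spots gave 14639 UMIs per 1000000 UMIs of the group (CPM) for 11 muscle genes in muscle-rich spots and 3823 CPM in neuronal spots. The 8 neuron genes of the check list gave 3322 CPM in muscle-rich spots and 4474 CPM in neuronal spots. All 11 muscle genes were higher in muscle-rich spots and all 8 neuron genes in neuronal spots, and the fragments at their promoters lay the same way for 8 of 11 and for 8 of 8. Collagen (5 genes, 2834 against 1011 CPM) and secretory epithelium genes (6 genes, 417 against 125 CPM) were also higher in muscle-rich spots. So was the sum of 7 pituitary hormone genes (191 against 113 CPM), although 3 of the 7 were higher in neuronal spots. Their part in the results below was not tested. Skeletal muscle is not part of the brain, and which tissues beside brain the sample held is not given in the sources used here.

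Depth per spot was similar in RNA, with a median of 4284.5 UMIs in muscle-rich and 4190.5 in neuronal spots. It differed in chromatin, with a median of 31988.5 against 21487 fragments, of which 53.7% against 44.3% were shorter than the DNA of 1 nucleosome. Intervals are 95% and cover counting error only. Spots of 1 library are not replicates, so no test between groups was made.

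The sequences that the chromatin results turn on are shown here, read from GRCm38 (mm10), plus strand, 5′ to 3′. The 250 bases before the RefSeq starts of Dlk1 (chr12:109452573-109452822) and Meg3 (chr12:109540746-109540995) are given first. They are shown because the Dlk1 start used for counting lay in a peak and that of Meg3 did not. That peak (chr12:109452848-109453661) begins past the Dlk1 bases shown, so none of them lies in it. In the Meg3 sequence the capitals mark TGACGTCA, 57 bases before the start, and overlapping TATAAA matches on both strands, 29 and 25 bases before it.

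Dlk1 promoter: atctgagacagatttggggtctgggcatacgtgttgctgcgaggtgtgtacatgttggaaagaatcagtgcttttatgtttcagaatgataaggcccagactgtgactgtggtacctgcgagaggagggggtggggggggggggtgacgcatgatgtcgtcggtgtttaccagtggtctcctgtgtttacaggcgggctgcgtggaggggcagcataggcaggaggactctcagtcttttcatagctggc

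Meg3 promoter: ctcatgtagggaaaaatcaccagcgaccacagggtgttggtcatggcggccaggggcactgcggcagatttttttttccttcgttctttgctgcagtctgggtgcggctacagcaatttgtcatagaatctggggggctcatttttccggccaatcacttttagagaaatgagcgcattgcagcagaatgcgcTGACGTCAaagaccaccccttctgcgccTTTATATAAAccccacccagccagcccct

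TGACGTCA, which reads the same on both strands, was found before 1.55% of 32851 RefSeq promoters of this length, and TATAAA on either strand before 12.4%. Dio3 also had a TATAAA, 31 bases before its RefSeq start. Neither motif was found before the RefSeq starts of Dlk1, Rian or Mirg, or before a further RefSeq start of Meg3 (bases chr12:109545148-109545397). The bases searched for Dio3 (chr12:110278980-110279229) and Mirg (chr12:109734731-109734980) end inside these genes as placed below. They are thus not the bases before the starts used for counting. RefSeq promoters were matched for 5 of the 6 genes. No promoter sequence is shown for Rtl1.

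The central 300 bases of 4 peaks follow. The far and near peaks before Dlk1 (chr12:109402199-109402498 and chr12:109441545-109441844) and the peak in Rian (chr12:109605108-109605407) had more signal in muscle-rich spots, and the peak before Meg3 (chr12:109539052-109539351) more in neuronal spots. Capitals mark CAGCTG, an E-box that reads the same on both strands and is bound by basic helix-loop-helix factors of muscle and of neurons.

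Far peak before Dlk1: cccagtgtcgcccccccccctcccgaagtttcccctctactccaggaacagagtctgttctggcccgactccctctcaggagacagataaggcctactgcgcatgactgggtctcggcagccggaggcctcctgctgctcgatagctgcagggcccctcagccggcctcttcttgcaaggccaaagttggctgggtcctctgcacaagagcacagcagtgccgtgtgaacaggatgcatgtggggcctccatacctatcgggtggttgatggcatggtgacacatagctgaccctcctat

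Near peak before Dlk1: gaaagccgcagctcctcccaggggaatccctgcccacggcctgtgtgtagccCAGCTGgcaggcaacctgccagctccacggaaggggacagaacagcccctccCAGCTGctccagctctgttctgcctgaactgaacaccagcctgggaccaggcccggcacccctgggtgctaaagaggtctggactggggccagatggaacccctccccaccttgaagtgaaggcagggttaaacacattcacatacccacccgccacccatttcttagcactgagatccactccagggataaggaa

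Peak before Meg3: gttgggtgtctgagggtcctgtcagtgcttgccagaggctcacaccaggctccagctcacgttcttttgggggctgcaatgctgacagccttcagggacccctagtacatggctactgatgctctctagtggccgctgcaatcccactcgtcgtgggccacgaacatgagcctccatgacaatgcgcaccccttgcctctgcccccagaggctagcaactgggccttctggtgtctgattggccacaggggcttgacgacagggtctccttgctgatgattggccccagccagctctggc

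Peak in Rian: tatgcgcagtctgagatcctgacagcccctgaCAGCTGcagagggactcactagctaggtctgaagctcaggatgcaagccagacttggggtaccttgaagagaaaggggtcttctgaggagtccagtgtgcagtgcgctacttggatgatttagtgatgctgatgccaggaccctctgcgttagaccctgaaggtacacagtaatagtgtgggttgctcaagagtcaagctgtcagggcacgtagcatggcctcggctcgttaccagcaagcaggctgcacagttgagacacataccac

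Dlk1 (chr12:109452823-109463336, plus strand) had 971 UMIs in the kept spots and was seen in 690 of them. It reached 213 CPM (183 to 246) in muscle-rich spots, from 186 UMIs, and 82.3 CPM (71.4 to 94.5) in neuronal spots, from 201 UMIs. Single spots held 0 to 7 Dlk1 UMIs with a median of 1 in the muscle-rich group and 0 to 4 with a median of 0 in the neuronal group, so the groups overlapped spot by spot. The summed level was 2.58-fold higher in muscle-rich spots (2.10 to 3.17). In these bulk-like spots, more cells of a type and more RNA per cell cannot be told apart.

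Rtl1, a retrotransposon-derived gene known for roles in placenta and fetal muscle, lies on the minus strand (chr12:109589193-109600330). It had 39 UMIs in muscle-rich spots (44.6 CPM, 31.7 to 61.0) and 81 in neuronal spots (33.2 CPM, 26.4 to 41.2). The ratio of 1.34 had an interval from 0.893 to 1.99, and no difference was detectable at this depth. The transcripts of the maternal chromosome run antisense to Rtl1, and whether the counting used strand is not given in the sources used here, so its UMIs are uncertain.

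Dio3 (chr12:110279068-110281097, plus strand) encodes the deiodinase that inactivates thyroid hormones. It was the gene of the 6 with fewest UMIs, 23 in all kept spots. Neuronal spots had 10 (4.10 CPM, 1.96 to 7.53) and muscle-rich spots 0, with an interval up to 4.22 CPM. The interval of the ratio held 1, so this difference was not detectable.

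Of the maternally expressed RNAs, Meg3 and Rian had more UMIs than the other members. Mirg, also maternally expressed, had 688 UMIs in the kept spots, fewer than Dlk1 with 971. These are UMI counts, not divided by transcript length. Meg3 (chr12:109541001-109571726, plus strand) had 40695 UMIs, 0.467% of all UMIs and rank 3 among all genes, and was present in each of the 1992 spots. Single spots held 2 to 52 Meg3 UMIs (median 20) in the neuronal group and 2 to 57 (median 21) in the muscle-rich group. Meg3 reached 4985 CPM (4838 to 5135) in muscle-rich and 4740 CPM (4654 to 4827) in neuronal spots, a ratio of 1.05 (1.02 to 1.09). The interval lay above 1 because of the large count, and the difference was small beside that of Dlk1.

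Rian (chr12:109603940-109661716, plus strand) hosts clusters of C/D box small nucleolar RNAs. It had 932 UMIs in muscle-rich spots (1066 CPM, 998 to 1137) and 1897 in neuronal spots (777 CPM, 743 to 813), a ratio of 1.37 (1.27 to 1.48). Single spots held 0 to 16 Rian UMIs (median 4) in the muscle-rich group and 0 to 11 (median 3) in the neuronal group. Mirg (chr12:109729764-109749460, plus strand), the host of a large microRNA cluster, had 98 UMIs (112 CPM, 91.0 to 137) against 194 (79.5 CPM, 68.7 to 91.5), a ratio of 1.41 (1.09 to 1.81). Rian and Mirg thus had similar ratios with overlapping intervals, and Meg3, transcribed in the same direction before them, had a lower one.

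Over all 9707 genes with at least 50 UMIs in both groups together, 9.12% were at least 1.5-fold higher in muscle-rich spots and 8.34% in neuronal spots. Among the 5 domain genes tested, Dlk1 passed that fold in muscle-rich spots and none did in neuronal spots. The interval lay above 1 in muscle-rich spots for 10.4% of all genes and for 4 of the 5 domain genes (Dlk1, Meg3, Rian and Mirg), and above 1 in neuronal spots for 12.7% and for none of the 5. Since Meg3 and Rian have far more UMIs than most genes, their intervals are narrower and pass more easily.

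**Figure D1:**
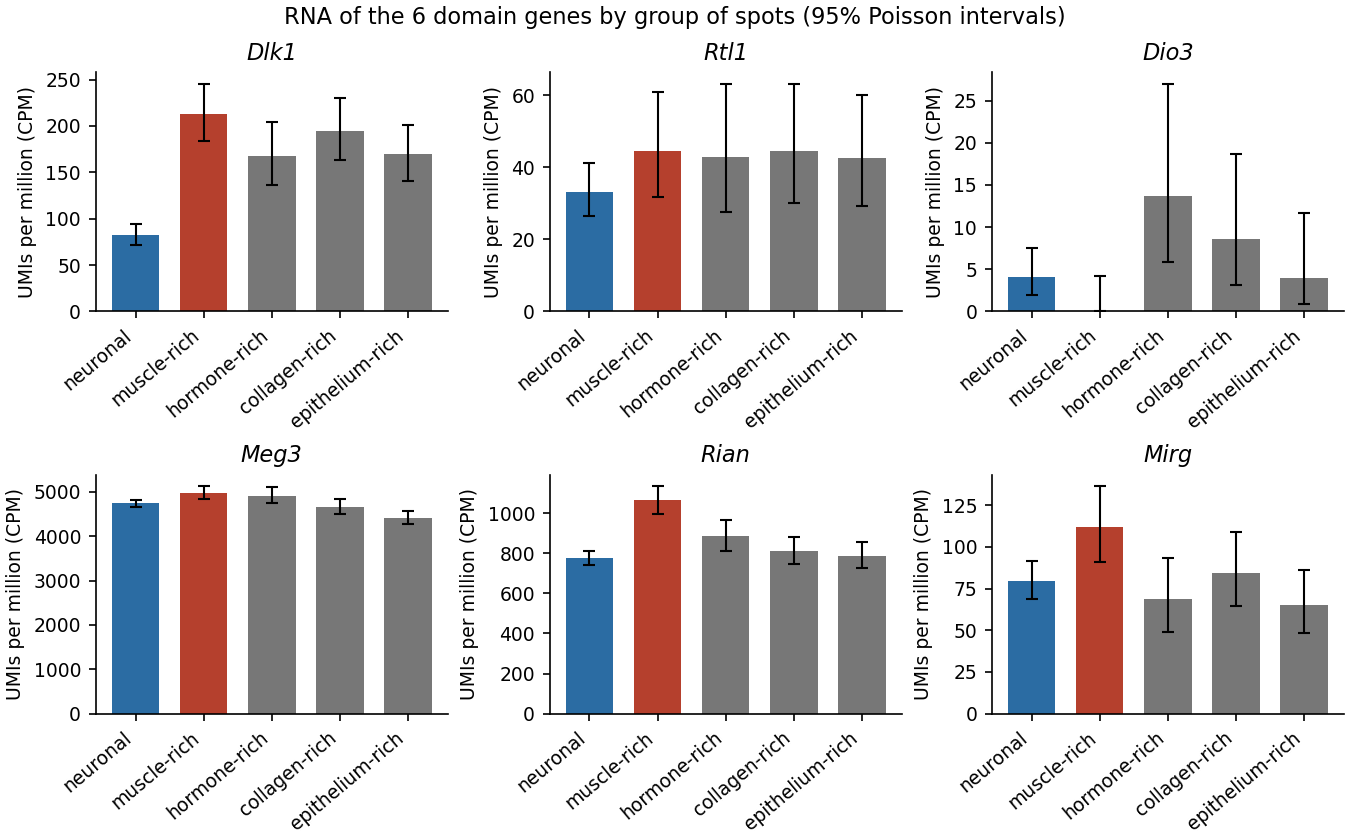
RNA of the 6 genes as CPM (vertical axes, different scales) in neuronal, muscle-rich, hormone-rich, collagen-rich and epithelium-rich spots of 1 library, bars from 0 with 95% Poisson intervals. The Dlk1 bar of neuronal spots (82.3 CPM) lies below the other 4 groups, and the Meg3 bars lie between 4418 and 4985 CPM.

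The other kinds of spots placed these levels. They were spots outside the muscle-rich group in the top 10% for pituitary hormone, collagen or secretory epithelium genes, 180 each, and some spots were in more than 1 group. Dlk1 was at 195 CPM (164 to 231) in collagen-rich, 169 CPM (141 to 201) in epithelium-rich and 168 CPM (136 to 205) in hormone-rich spots. Each of these intervals overlapped that of the muscle-rich spots, and the neuronal level lay below them all. The 1238 kept spots that were neither muscle-rich nor neuronal, which include part of these groups, also lay below them (108 CPM, 99.6 to 117). The muscle check genes gave 7987 CPM in collagen-rich, 6131 in epithelium-rich and 4914 in hormone-rich spots, against 3823 in neuronal spots. The part of muscle RNA in these Dlk1 levels was not tested. The order for Rian was muscle-rich, hormone-rich (886 CPM, 811 to 966), collagen-rich (811 CPM, 746 to 881), epithelium-rich (789 CPM, 727 to 855) and neuronal, where the last 4 overlapped between neighbours. Mirg in these groups was between 65.3 and 84.6 CPM, all with intervals that overlapped that of neuronal spots. Meg3 was lowest in epithelium-rich spots (4418 CPM, 4269 to 4571). Dio3 had 8 UMIs in hormone-rich spots (13.7 CPM, 5.92 to 27.0), its highest level. The ratio of neuronal over hormone-rich spots was 0.299 (0.106 to 0.871) for Dio3 and 0.877 (0.796 to 0.969) for Rian. Neither interval held 1. However, 43 of the 180 hormone-rich spots were also neuronal, so their UMIs counted on each side of these ratios. The intervals treat the groups as separate spots, so they cannot decide whether the levels of Dio3 and Rian differed here.

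Muscle-rich spots were not spread evenly over the grid. Spots that share the second barcode segment are called a strip here, and 46 strips had at least 5 kept spots. In 6 strips, 18 to 32 spots were muscle-rich, against at most 6 in any other strip. These 6 muscle strips held 150 of the 200 muscle-rich spots and 2 of the 554 neuronal spots. Position on the grid and muscle content therefore moved together, and levels were also compared by strip.

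Dlk1 was at 160 to 270 CPM (median 208) in the 6 muscle strips and at 46.03 to 280 CPM (median 82.4) in the 40 others, 2.28-fold higher in sum (1.99 to 2.61). Of the 40 other strips, 2 reached the range of the muscle strips. They had 280 and 195 CPM of Dlk1 from 44 and 20 UMIs, with 5 muscle-rich spots each. Their Acta1 plus Ttn was 1395 and 1386 CPM, below the 2543 to 3883 CPM of the muscle strips. The other strip with 6 muscle-rich spots had 120 CPM of Dlk1. Leaving out any 1 of the muscle strips gave ratios of 2.17 to 2.37. Rian was at 826 to 1053 CPM (median 991) in the muscle strips and at 369 to 977 CPM (median 803) in the others, a ratio of 1.20 (1.13 to 1.27). For Rian, 19 of the 40 others reached the range of the muscle strips, and none reached their median. Mirg was at 75.9 to 114 CPM in the muscle strips and at 28.4 to 148 CPM in the others, a ratio of 1.39 (1.16 to 1.67). Here too 19 of the 40 others reached that range. For Meg3 the direction turned, with 4335 to 4854 CPM against 3926 to 6017 CPM and a ratio of 0.984 (0.959 to 1.01).

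**Figure D2:**
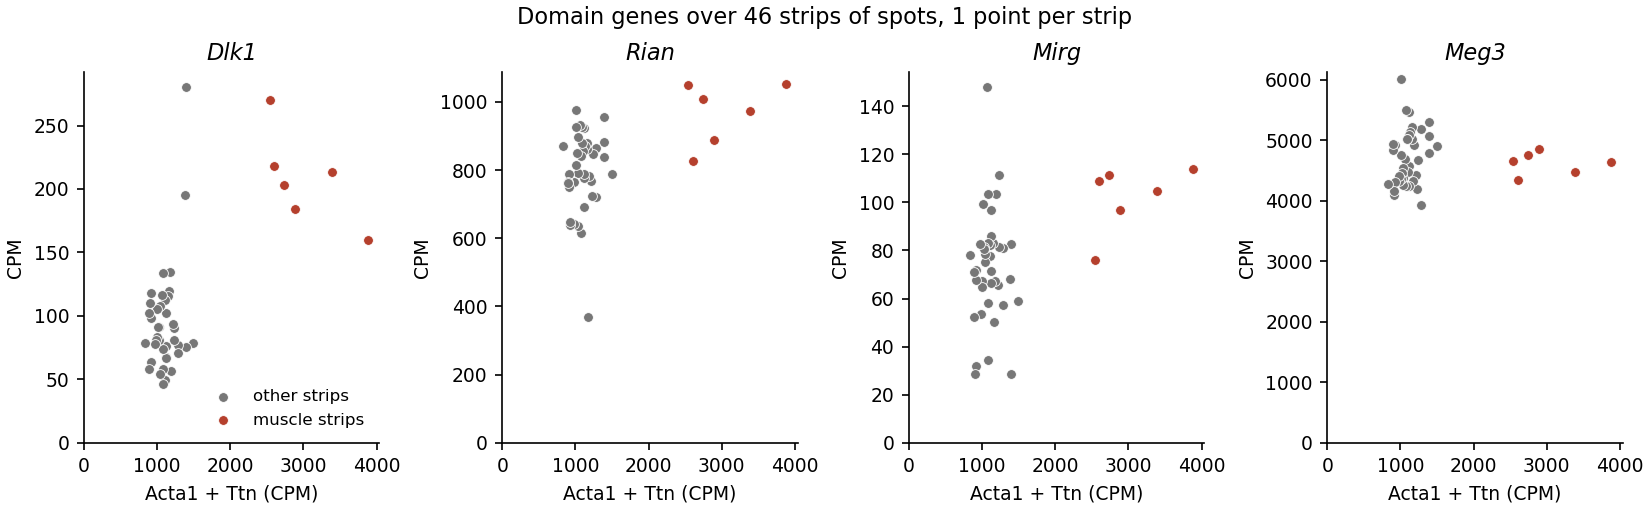
CPM of Dlk1, Rian, Mirg and Meg3 (vertical axes) against the CPM of Acta1 plus Ttn (horizontal axes) in 46 strips of spots, 1 point per strip, with the 6 muscle strips in red. Dlk1 points of the muscle strips lie mostly above the others, those of Rian overlap the others in part, and those of Meg3 lie inside the range of the others.

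Away from the 6 strips the ratios of Dlk1, Rian and Mirg were lower, but that of Meg3 was not. The 50 muscle-rich spots there had 14 Dlk1 UMIs (109 CPM), and the ratio to the 552 neuronal spots of the same strips was 1.34 (0.720 to 2.30). Over the same spots the ratio of Rian was 1.08 (0.877 to 1.31), that of Mirg 0.894 (0.403 to 1.73) and that of Meg3 1.13 (1.04 to 1.22). Muscle genes that had not chosen the spots were also less raised there, with 1.38-fold for Myh8 (1.14 to 1.66), a fetal myosin heavy chain, and 1.33-fold for Tnnc2 (1.07 to 1.64), fast troponin C. For the 150 muscle-rich spots inside the muscle strips, against the same 552 neuronal spots outside them, these were 4.70-fold and 4.29-fold. The Dlk1 ratio of these 150 spots to the same neuronal spots was 2.83 (2.29 to 3.48). Both comparisons run across strips, so position and muscle content cannot be told apart in them.

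A split of all kept spots into 5 equal parts by Acta1 plus Ttn gave, from the lowest part to the highest, Dlk1 levels of 81.6, 86.2, 96.7, 126 and 164 CPM, each higher than the one before. The intervals of the lowest and the highest part, 67.9 to 97.2 and 146 to 185 CPM, did not overlap. Rian stayed between 776 and 811 CPM in 4 parts and was at 966 CPM (920 to 1013) in the highest. Meg3 ranged from 4573 to 4746 CPM with no order.

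The genes whose level over the 46 strips was most like that of each member, among 7925 genes with at least 200 UMIs, were taken by Pearson's r of log2(CPM + 20). This is a description across strips of 1 library that share a grid and differ in depth. For Dlk1 they were Eno3 (r = 0.779), a muscle enolase, Tnnc2 (0.752), Scgb1c1 (0.739), a secretoglobin, Ckm (0.730), muscle creatine kinase, and Tpm1 (0.720), a tropomyosin. For Meg3 they were Snhg11 (0.574), Sox2ot (0.542), Trib2 (0.532), Zeb1 (0.494) and Hap1 (0.483), of which Snhg11 and Sox2ot are noncoding RNAs. Rian was most like Dennd4c (0.649), Prkar1a (0.645), Gadd45gip1 (0.639), Spire1 (0.630) and Uqcrh (0.630). Mirg was most like Anxa5 (0.538), Cfap299 (0.531), the imprinted gene Mest (0.525), Rnf145 (0.522) and Tppp3 (0.520). Rtl1 was most like Acsl1 (0.525), Rbpms (0.521), Bin1 (0.502), Prrc2c (0.491) and Tjp1 (0.491). Among the members, Meg3 and Rian were most alike (0.425), where Rian ranked 23 of 7925 for Meg3 and Meg3 ranked 410 for Rian. Taken over the first barcode segment, none of the 5 genes was the same for any member, so these lists describe the strips alone.

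Promoters gave another order than RNA. For each gene the fragments that touched the 1 kb on either side of its start were counted, and a level is their number per 1000000 promoter fragments of the group. In all kept spots the members had 53 (Rtl1) to 131 (Dlk1) such fragments, beside a median of 98 over 32235 genes. Only the start of Dlk1 lay in a peak. Meg3, rank 3 in RNA, had 102 fragments at its start and was near the median of all genes.

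At the Dlk1 start there were 20 fragments in muscle-rich spots (21.8 per 1000000) and 31 in neuronal spots (20.3 per 1000000). The ratio of 1.08 (0.581 to 1.95) did not show the difference seen in Dlk1 RNA, and its interval excluded the RNA ratio of 2.58. For the 11 muscle genes of the check list, neuronal over muscle-rich spots was 0.261 in RNA and 0.597 (0.493 to 0.723) at promoters. In that direction Dlk1 was 0.387 in RNA and 0.930 (0.513 to 1.72) at its promoter. A smaller difference at promoters than in RNA was thus not particular to Dlk1. At the Rtl1 start there were 18 against 9 fragments, 3.33-fold more in muscle-rich spots (1.42 to 8.43). At Meg3 there were 29 against 23 (2.10-fold, 1.17 to 3.81) and at Rian 20 against 15 (2.22-fold, 1.08 to 4.67). The ratios at Mirg, 1.86 (0.917 to 3.82), and at Dio3, 1.41 (0.762 to 2.59), had intervals that held 1.

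Promoters at least 1.5-fold higher in muscle-rich spots were 14.6% of the 22056 with at least 20 fragments, and 4 of the 6 members (Rtl1, Meg3, Rian and Mirg). The interval lay above 1 in muscle-rich spots for 10.5% of all promoters and for 3 of the 6. In neuronal spots 15.4% passed the fold and 9.33% had such an interval, and none of the 6 did either. Of the 7932 tested promoters whose start lay in no peak, as for 5 of the 6 members, 18.2% passed the fold in muscle-rich spots and 7.74% had such an interval. Between the muscle strips and the other strips, the promoter ratios of Rian and Mirg were 1.42 (0.854 to 2.29) and 1.40 (0.872 to 2.21), below the fold, while that of Dio3 was 1.59 (1.04 to 2.40), above it. The 50 muscle-rich spots outside the 6 strips had 0 to 3 fragments at each member's promoter, too few to repeat the comparison there.

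**Figure D3:**
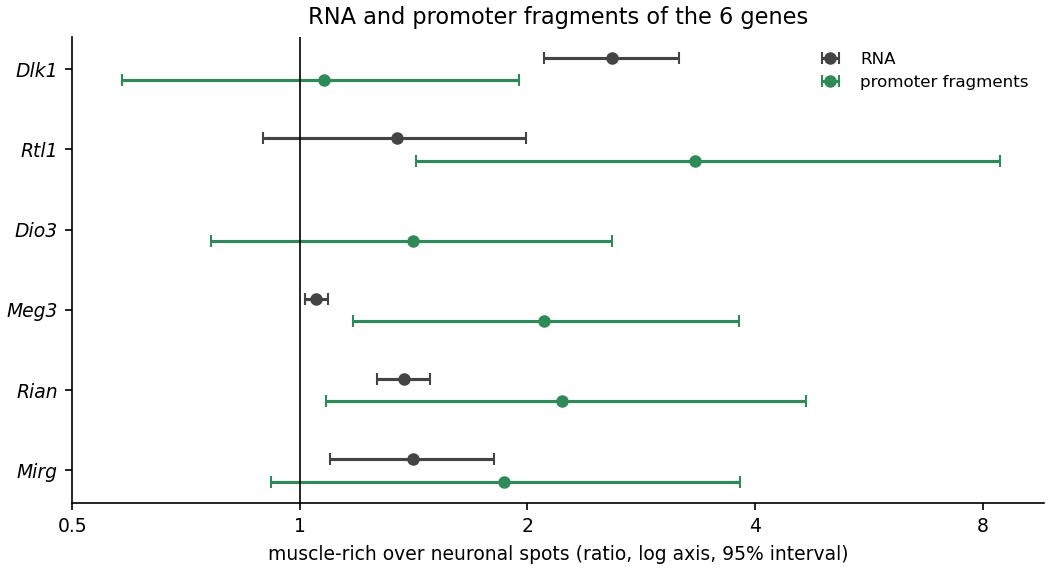
Ratio of muscle-rich over neuronal spots (log axis) for RNA and for promoter fragments of the 6 genes, points with 95% intervals from counting error. Dlk1 has the largest RNA ratio, 2.58, and the smallest promoter ratio, 1.08; Dio3 has no RNA ratio because muscle-rich spots had 0 UMIs.

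The Meg3 start lay between 2 peaks, 1.80 kb before it (chr12:109538749-109539654) and 2.10 kb after it in the gene (chr12:109542656-109543547). The peak before it had 28 cut sites in muscle-rich spots (11.5 per 1000000 peak counts) and 81 in neuronal spots (19.4 per 1000000), a ratio of 0.590 (0.370 to 0.918). Counted as fragments, each of which has 2 cut sites, it had 15 against 44 and the interval of the ratio held 1 (0.604, 0.312 to 1.11). The peak in the gene had 53 against 110 cut sites, a ratio of 0.823 (0.582 to 1.15). In bins of 250 bp, the largest gap was 1750 to 1500 bp before the start, with 2 fragments in muscle-rich and 17 in neuronal spots. The 250 bp just before the start held 9 against 10 fragments. With a window of 2 kb on either side, which takes in part of both peaks, there were 64 against 98 fragments and the promoter ratio was 1.08.

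**Figure D4:**
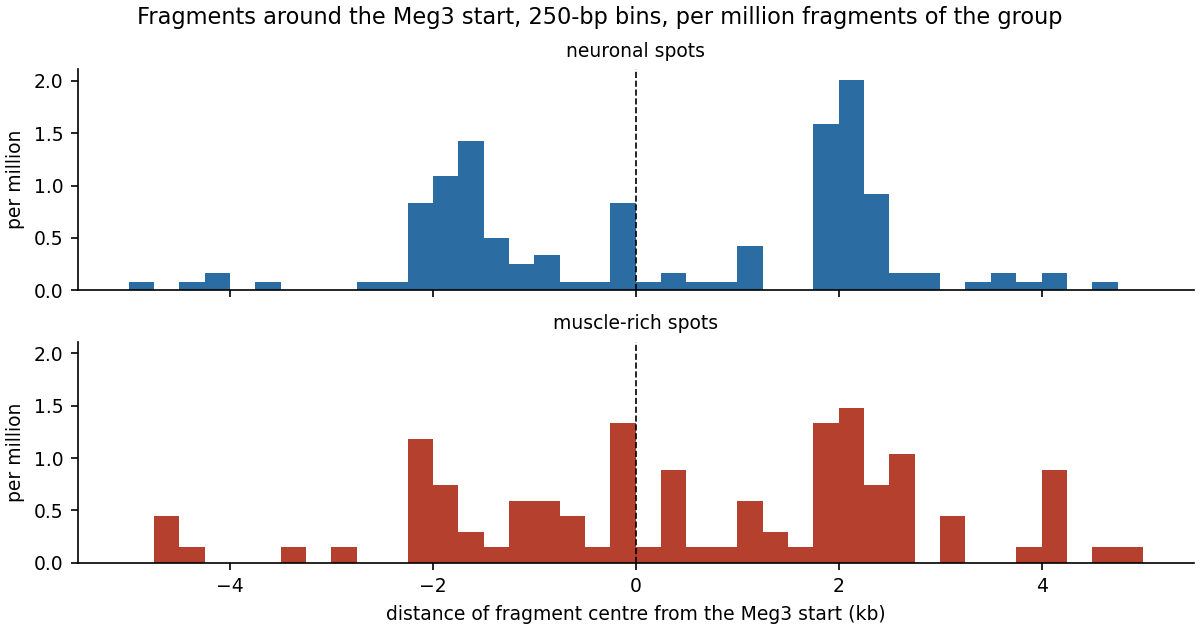
Fragments per 1000000 fragments of the group (vertical axes) in 250-bp bins of the distance from the Meg3 start (horizontal axis, kb; dashed line at the start), neuronal spots above and muscle-rich spots below. Both groups have clusters about 2 kb on either side of the start, and the upstream one is higher in neuronal spots, where 1 bin holds 17 fragments.

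From 100 kb before Dlk1 to 100 kb past Dio3 (chr12:109352823-110381097) the authors' peak set had 46 peaks, of which 42 had at least 20 cut sites in both groups together. At least 1.5-fold higher in muscle-rich spots were 14 of the 42 (33.3%), where 23.3% of all 83724 peaks tested were. In neuronal spots 8 (19.05%) were, where 28.9% of all peaks were. The interval of cut sites lay on the muscle-rich side for 13 (and for 16.2% of all peaks) and on the neuronal side for 3 (and for 17.5% of all peaks). Counted as fragments, 33 of the 46 had at least 20, and the interval lay on the muscle-rich side for 9 and on the neuronal side for 0; the share among all peaks was not counted for fragments. Between the muscle strips and the other strips, 11 peaks were at least 1.5-fold higher on each side. The share among all peaks was not counted for strips either. Both ends of a fragment count as cut sites, so the intervals of cut sites are too narrow.

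The muscle-rich side was uneven along the domain. Of the 8 peaks before Dlk1, 6 were at least 1.5-fold higher in muscle-rich spots, where 23.3% of all peaks tested were. The largest difference of the 8 lay 50.5 kb before the start (chr12:109401916-109402781), with 67 cut sites against 35, 3.27-fold (2.14 to 5.07). The next was 35.1 kb before it (chr12:109417302-109418238), with 81 against 45, 3.07-fold (2.11 to 4.53). The peaks 20.1 and 11.2 kb before it were 2.40-fold and 2.26-fold higher. As fragments these 4 peaks had ratios of 3.26, 3.02, 2.36 and 2.21, and all 4 intervals lay above 1. One peak, 6.81 kb before the start, leaned to neuronal spots (0.629, 0.362 to 1.05). The peak at the Dlk1 start itself did not differ detectably (0.955, 0.514 to 1.72).

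The 6 raised peaks before Dlk1 together had 117 cut sites per 1000000 peak counts in muscle-rich, 127 in collagen-rich, 95.1 in epithelium-rich, 84.9 in hormone-rich and 47.2 in neuronal spots. These 6 were chosen by the ratio of muscle-rich to neuronal spots, so a low neuronal level was built in and these values are a description. All 8 peaks before Dlk1 together had 135 in muscle-rich, 137 in collagen-rich, 115 in epithelium-rich, 113 in hormone-rich and 69.9 in neuronal spots. In the 50 muscle-rich spots outside the 6 strips, the 6 peaks had a ratio to neuronal spots of 1.57 (0.973 to 2.43). For all 8 it was 1.24 (0.806 to 1.85), and both intervals held 1. By strip, the 8 peaks before Dlk1 together were 1.94-fold higher in the muscle strips than in the others (1.75 to 2.16). The single ratios of the 8 ran from 0.593 to 3.396. How many of all peaks had such ratios by strip was not counted.

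Within the maternally expressed stretch, from the peak before Meg3 to the end of Mirg, 2 of 8 peaks were raised in each direction. Among all peaks tested, 23.3% were raised in muscle-rich and 28.9% in neuronal spots, so these counts were near the usual shares. The 2 raised in muscle-rich spots lay in Rtl1 (chr12:109595797-109596574, 29 against 17 cut sites, 2.91-fold, 1.55 to 5.65) and in Rian, 1.32 kb after its start (chr12:109604817-109605697, 36 against 19, 3.24-fold, 1.81 to 5.97). As fragments their ratios were 2.95 (1.21 to 7.65) and 3.36 (1.49 to 8.10). The promoter window of Rian overlaps the second of these peaks, and the window of 500 bp on either side, which does not, held 6 against 4 fragments. In the 50 muscle-rich spots outside the 6 strips neither of these 2 peaks had a cut site. The intervals of their ratios to neuronal spots ran from 0 to 3.26 in Rtl1 and from 0 to 2.88 in Rian. Counts there were too few to repeat the comparison. A peak at the end of Mirg (chr12:109749428-109750319) was 2.54-fold higher in muscle-rich spots (1.72 to 3.798), and 4 of the 14 raised peaks lay 81.1 to 107 kb past that end. The same stretch held 2 peaks at least 1.5-fold higher in neuronal spots, 14.7 kb past the end (5 against 24 cut sites, 0.356, 0.106 to 0.952) and 108 kb past it (10 against 33, 0.518, 0.228 to 1.08). Between there and Dio3 and beyond, 1 of 14 tested peaks was raised in muscle-rich spots and 3 in neuronal spots, beside the same 23.3% and 28.9%. One of these 3 lay 19.8 kb past the Dio3 start (chr12:110298379-110299311), with 12 against 41 cut sites and a ratio whose interval ran from 0.239 to 0.970.

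**Figure D5:**
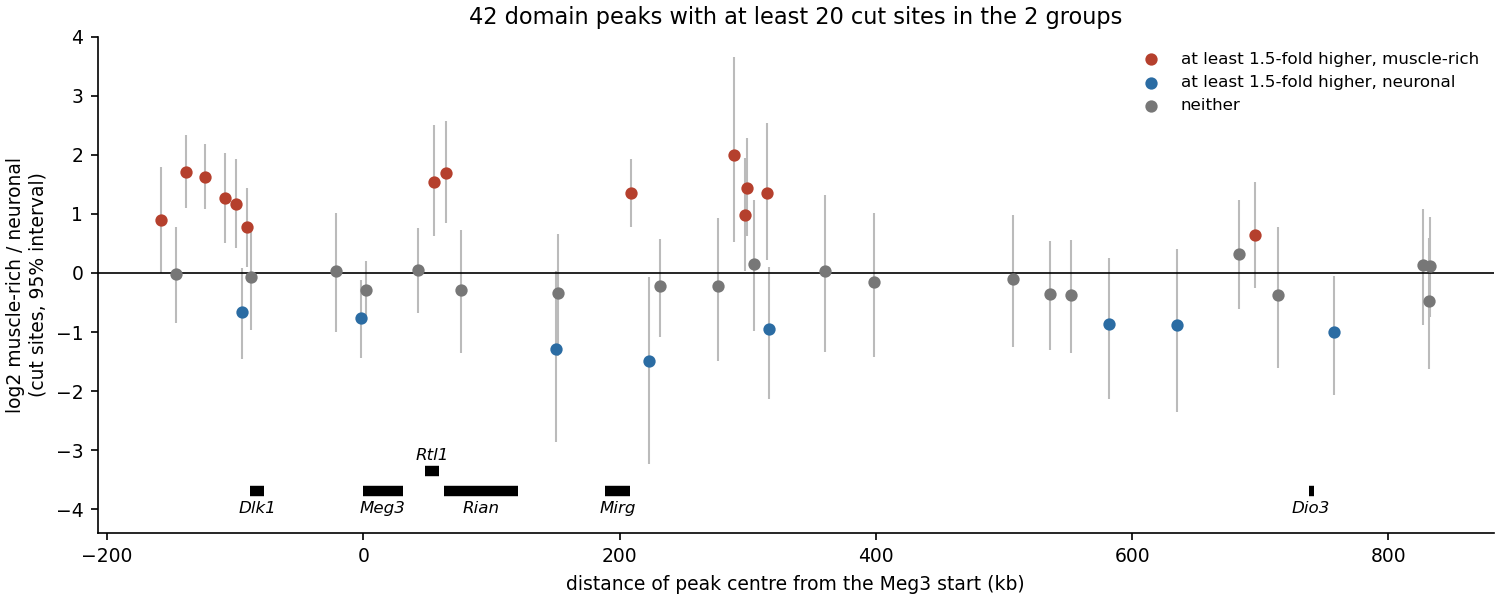
Log2 ratio of muscle-rich over neuronal cut sites (vertical axis, 95% intervals) of the 42 peaks tested, against the distance of the peak centre from the Meg3 start (horizontal axis, kb), with the 6 genes drawn to position as black bars. Red points, 14 peaks at least 1.5-fold higher in muscle-rich spots, lie mainly before Dlk1 and up to about 107 kb past Mirg, and blue points are the 8 higher in neuronal spots.

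CAGCTG was found in the central 300 bases of 8 of the 46 peaks, where 23.6% of 91150 peaks held it. It was in 4 of the 14 peaks raised in muscle-rich spots, 3 of the 8 raised in neuronal spots and 1 of the other 24. The near peak before Dlk1 held it at 2 places, and the peak in Rian at 1. The consensus of the MEF2 transcription factors was in 1 of the 46 (2.30% of all peaks), a peak that differed in neither direction.

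CTCF binds DNA through its zinc fingers and shapes chromatin loops, and an exact match to its core consensus on either strand was found at 8 places in the 1028 kb. One of them lay in a peak, 94.5 kb past the Dio3 start on the minus strand (chr12:110373583-110373595, CCAGCAGGGGGCA), with 54 fragments within 50 bp in all kept spots. The other matches had 5 to 37 fragments, where the median over the domain was 6. The match with 37 lay 58.8 kb before Dlk1 (chr12:109394009-109394021, minus strand, CCACCAGGGGGCA). Matches to this consensus were in 1.87% of all peaks. CTCF binding itself was not measured in these libraries.

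Other genes of the domain were few. Of 16 genes of the matrix from Begain to Dio3, 11 had at least 10 UMIs, and 5 of these were not members. B830012L14Rik, a noncoding RNA between Rian and Mirg, had 215 UMIs in muscle-rich (246 CPM) and 429 in neuronal spots (176 CPM), a ratio of 1.40 (1.18 to 1.65), near those of its neighbours. Begain, the gene before Dlk1, which encodes a guanylate kinase-associated protein, had 43.5 against 52.4 CPM (0.829, 0.561 to 1.20). Gm34081 (10 against 13 UMIs), Dio3os (1 against 4) and Gm34719 (0 against 3) had too few UMIs to compare.

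Genes that act with the members were described by list. Of 12 genes of thyroid hormone action, 9 had at least 50 UMIs, of which 2 were at least 1.5-fold higher in muscle-rich spots and none in neuronal spots, beside 9.12% and 8.34% of all genes tested. They were Rxra, a nuclear receptor partner (2.03-fold, 1.32 to 3.11), and Slc16a10, a transporter, whose interval held 1 (1.71-fold, 0.913 to 3.13). The receptor Thra was at 313 CPM in neuronal and 261 CPM in muscle-rich spots, a ratio of 0.833 (0.715 to 0.967), while the cofactors Ncoa1 (0.972) and Ncor1 (1.03) had intervals that held 1. Of 17 Notch genes, 11 were tested, of which 3 passed the fold in muscle-rich and 1 in neuronal spots, beside the same 9.12% and 8.34% of all genes. The 3 were the receptor Notch2 (1.98-fold, 1.37 to 2.85), the ligand Jag1 (2.02-fold, 1.10 to 3.67) and the target Hes1 (1.74-fold, 1.04 to 2.85), and the 1 was Dlk2, the relative of Dlk1, at 25.4 CPM in neuronal and 14.9 CPM in muscle-rich spots (0.585, 0.295 to 1.08). The 3 Notch genes with most UMIs, Numb (1.33), Rbpj (1.13) and Notch1 (0.977), differed less. The median log2 ratio of neuronal over muscle-rich spots was -0.39 for the tested Notch genes, 0.03 for the thyroid hormone genes and 0.06 for all genes.

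A list of 14 genes linked to imprints or to DNA methylation was also used, and not all of them keep imprints. Of these, 10 were tested and none reached 1.5-fold in either direction, with a median log2 ratio of 0.02. Among all genes, 9.12% did in muscle-rich and 8.34% in neuronal spots. Ctcf itself was at 80.1 CPM in muscle-rich and 77.4 CPM in neuronal spots (1.03, 0.774 to 1.37). Zfp57, which protects methylated imprinting control regions, was at 92.6 and 90.9 CPM. Dnmt3a (1.04), Tet3 (0.898) and Trim28 (0.824), which had most UMIs of the list, all had intervals that held 1.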

How the data were processed

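Both libraries had been run through cellranger-arc 2.0.1 against mm10 (GRCm38) per the file headers, and the submitters' processing notes also name Seurat 4.0. The deposited matrix holds raw counts: UMIs for 32285 genes and cut sites for 91223 peaks over 1993 barcodes. The deposited fragment file holds counts of read pairs per fragment for 2500 barcodes, duplicates collapsed. The rule that chose the barcodes is not given in the sources used here. The kept spots had 8711132 UMIs and 46993860 fragments, 907 to 12442 UMIs each.

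Counts were summed over groups of spots and divided by the group's total UMIs, promoter fragments or peak counts. Intervals at 95% are exact Poisson for levels and conditional binomial for ratios. UMIs were not divided by transcript length, so where genes are ordered by UMIs, the order is one of counts and not of transcript levels. Starts came from GENCODE M21. With 1 library per assay no test was made. Named genes are the 6 members, the 5 genes most like each over strips, domain genes with at least 10 UMIs, and from each of 3 lists the 3 genes with most UMIs; Rxra, Slc16a10, Notch2, Jag1, Hes1, Dlk2, Ctcf and Zfp57 were added after their values were seen. Members, groups and lists were chosen with earlier results of these data known. Python 3.11.15, numpy 2.4.6, scipy 1.17.1 and pandas 2.3.3 were used, and the steps were tested on simulated data.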

Additional observations from a re-analysis of the deposited data

Results flagged for a closer look

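The fragment file holds 507 barcodes that the matrix does not, and no comparison above used them. They held 64 fragments at the promoters of the 6 genes, 126 per 1000000 promoter fragments, where the 1992 kept spots held 568, or 92.3 per 1000000. These barcodes have no RNA counts here, so they were in no group.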

How the results depend on the processing

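Of 152 values recomputed for 36 results, 119 stayed within the interval, or for counts within 1.5 times, 31 moved out of it and 2 turned direction. A turn was counted only where the main interval did not hold 1. The Rtl1 RNA ratio and the Dlk1 promoter ratio, whose main intervals held 1, also fell below 1 in some settings (0.471 for Rtl1, 0.968 and 0.993 for Dlk1). Ratios are muscle-rich over neuronal. With the top 20% as muscle-rich spots, Dlk1 RNA was 1.99, Meg3 1.0009 and Rian 1.24; with the top 5%, Meg3 was 1.09 and Rian 1.62. Muscle strips against the others, chosen after seeing the data, gave Meg3 0.984, which turned, and Rian 1.20. Muscle-rich spots outside these strips, also chosen after seeing the data, gave RNA ratios of 1.33 for Dlk1, 0.471 for Rtl1, 1.13 for Meg3, 1.08 for Rian and 0.885 for Mirg, which turned, and a Meg3 promoter ratio of 1.16; Rian had 0 promoter fragments there and no ratio. These values, against all 554 neuronal spots, differ slightly from those given above against the 552 neuronal spots outside the strips. A 2 kb window gave a Meg3 promoter ratio of 1.08. Other scalings of the RNA and other spot filters moved none of the 5 RNA ratios out of its interval, and the 8 peaks higher in neuronal spots became 3 at a fold of 2, 3 at a minimum of 50 counts, 3 as fragments 4 outside the strips and 11 between the strips, while the 14 higher in muscle-rich spots became 8 at a minimum of 50 counts and 11 between the strips. The cause of these shifts was not tested, except that higher minimums leave fewer peaks and the 50 spots outside the strips fewer counts. Of the 5 genes most like a member, 0 to 5 were shared between settings. In the top 5% of spots, Dlk1 was at 241 CPM in hormone-rich and Dio3 listed at 0 in collagen-rich spots. No paired analysis was possible because there is 1 library per assay. Depth limits Dio3, Rtl1 and all promoters most.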
